A study of Mus musculus with 18 samples.

Results

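The comparison was between whole testis of mice without a functional luteinizing hormone receptor (Lhr null, genotype WT/Lhr-/-, 5 arrays) and of wild type mice (WT/WT, 4 arrays), all wild type for the follicle stimulating hormone receptor gene Fshr. The mice were 12 weeks old and came from a cross of FVB/N with C57/BL6, and total RNA of each sample was hybridised to 1 Illumina bead array. These 9 arrays belong to a series of 18 arrays in 4 genotype groups. Probes entered the comparison if they were detected at p under 0.01 on at least 4 of the 9 arrays, which 18321 of 45281 probes were. Of these, 15542 carried 1 gene symbol and stood for 10454 genes, and each gene was read from its brightest probe. The series title asks which testis transcripts depend on each gonadotropin. No label states whether the arrays stem from different animals, so every p-value measures the spread between these samples.

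Luteinizing hormone acts on Leydig cells in the space between the seminiferous tubules, where its receptor drives the production of testosterone from cholesterol. Testosterone acts on the androgen receptor of Sertoli, peritubular myoid and Leydig cells, whereas germ cells do not need this receptor themselves. In rodents with little or no testosterone action, spermatogonia and spermatocytes are still formed, and development typically stops before spermatids elongate. Transcripts below are therefore ordered from the Leydig cell through the Sertoli cell to the germ cells by their order of development. In RNA of a whole organ, fewer cells of a type and less RNA per cell cannot be told apart.

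Levels are log2 intensities after background correction and quantile normalization, and differences are Lhr null minus wild type with the standard error (SE) of the limma fit. A transcript was called at a Benjamini-Hochberg adjusted p under 0.05 over all 18321 probes. The arrays detected between 15482 and 18950 probes, where wild type averaged 16990.5 ± 1127.9 (SD, n = 4) and Lhr null testis 17889 ± 736 (SD, n = 5), and this difference was not past an exact two-sided permutation test (p = 0.206). Lhr null replicate 1 stood apart from the other libraries of its group. On the first principal component, which held 78.5% of the variance of all probes, the wild type arrays lay between -72.1 and -68.6, Lhr null replicate 1 at 15.8 and the other 4 Lhr null arrays between 52.4 and 73.4. Over the 2764 genes that differed at least 2-fold between the other 4 Lhr null arrays and wild type, the median position of replicate 1 was 0.38 of the way to wild type, and in 2205 of them it was the Lhr null array nearest to wild type. Its 18080 detected probes lay within the range of the other arrays. Results that rest on it are given with and without it. Transcripts of Lhr (Lhcgr) had no named probe past the filter. The genotype was therefore taken from the labels and could not be checked on the transcript of the deleted gene.

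Most of the testis transcriptome differed between the genotypes. Of 10454 genes, 4456 (42.6%) were higher and 2567 (24.6%) were lower in Lhr null testis, 67.2% in all, and over probes 40.2% were higher and 25.5% lower (65.6% in all). The higher differences were many and small, the lower ones fewer and large. At least 2-fold, 984 genes (9.41%) were higher and 1406 (13.4%) lower, though 295 were higher with cyclic loess and 452 with the authors' processed values. By the quantile normalized values, at least 4-fold 34 were higher and 479 lower, at least 8-fold 3 were higher and 118 lower, and at least 16-fold 1 was higher and 12 lower. The levels of the groups did not overlap in 3839 genes (36.7%) that were higher and 2230 (21.3%) that were lower. The median gene lay 0.24 above 0, and this offset depends on the normalization. With cyclic loess the median was -0.00 and 47.3% of called genes were higher, against 63.4% here, while median scaling gave 0.16 and 55.9% and no normalization between arrays gave 0.14 and 49.9%. Small differences upward, and the medians and counts of the lists, are to be read against this median and the shares of all genes. Without Lhr null replicate 1, 7164 genes were called, 6890 of them in the same direction as with it.

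**Figure D1:**
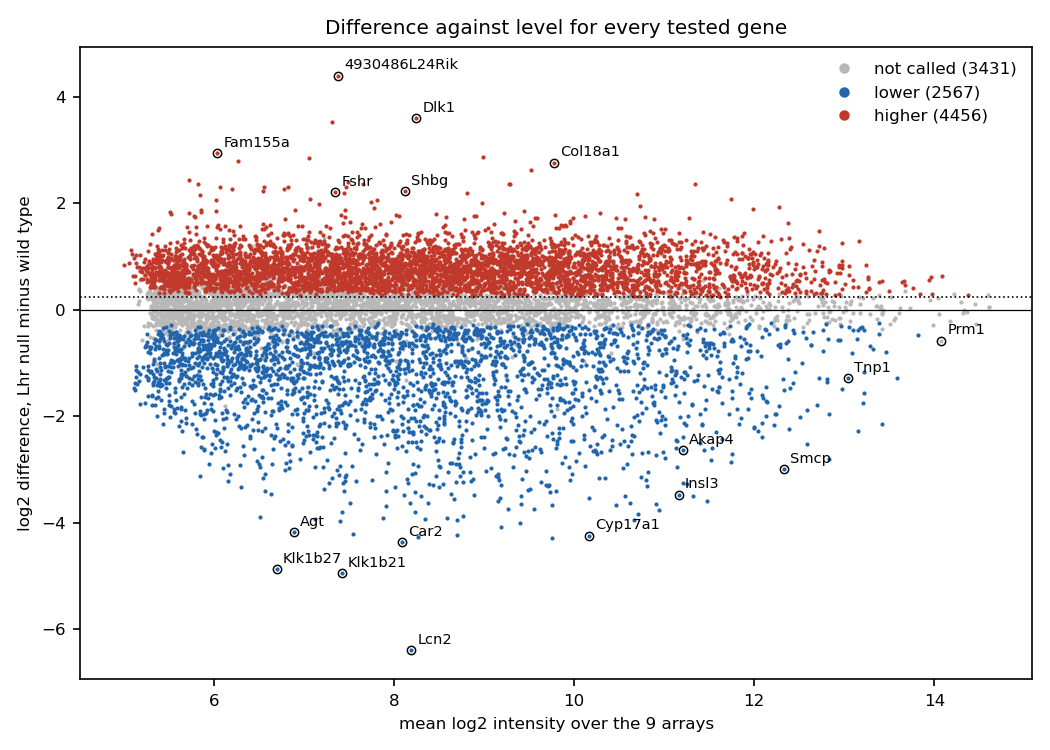
Log2 difference between Lhr null and wild type testis (vertical axis) against the mean log2 intensity over the 9 arrays (horizontal axis) for all 10454 genes, with called genes in red (higher) and blue (lower), 0 as a solid line and the median gene at 0.24 as a dotted line. The lower genes reach down to Lcn2 at -6.40, whereas 1 gene, 4930486L24Rik at 4.39, lies more than 4 above 0.

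Enzymes that make testosterone in Leydig cells showed a steep loss. Of 10 tested genes of steroid synthesis, 5 fell and 4 rose (median -0.62), where 24.6% of all genes fell and 42.6% rose. With cyclic loess or median scaling 3 rose, and without normalization 2. Cyp17a1, the enzyme that turns progestins into androgens, read 12.67, 12.40, 12.91 and 12.09 in wild type and 8.22, 8.11, 8.32, 8.16 and 8.58 in Lhr null testis. Every Lhr null array lay more than 3 log2 units below every wild type array, and the transcript fell by 4.24 ± 0.17 (SE, adjusted p = 3.48e-07). Hsd17b3, which makes testosterone from androstenedione in the testis, read 7.14, 8.04, 7.93 and 7.22 on the wild type arrays and 4.37, 4.44, 4.59, 4.52 and 4.38 on the Lhr null arrays. It was detected on 4 of 4 wild type and 0 of 5 Lhr null arrays and was at least 4.60-fold lower (adjusted p = 2.42e-06). Star, the carrier of cholesterol into mitochondria, read 6.70, 5.97, 7.26 and 6.01 in wild type and 4.57, 4.45, 4.59, 4.79 and 4.68 in Lhr null testis, and with no Lhr null array detecting it, it was at least 2.15-fold lower. Cyp11a1, which cuts the cholesterol side chain, read 7.63, 7.31, 8.07 and 7.21 on the wild type arrays and 6.21, 6.16, 5.55, 6.31 and 6.23 on the Lhr null arrays and fell by 1.46 ± 0.21, the smallest of these 4 differences, with all 5 Lhr null arrays still above the detection limit. Lhr null replicate 3 was the lowest array of Cyp11a1. Hsd17b11 fell by 0.82 ± 0.14. The 4 genes that rose are not specific to steroid-making cells: Cyb5a, the cytochrome b5 that aids the last step of the Cyp17a1 reaction, rose by 1.08 ± 0.14, the Golgi protein gene Acbd3 by 1.06 ± 0.14, Stard3 by 0.56 ± 0.11 and Tspo by 0.39 ± 0.13. Tspo lost its call with cyclic loess (0.12), median scaling (0.37) and no normalization (0.36), with the replicate block (0.37) and without wild type replicate 2 (0.34). Stard3 lost its call without normalization (0.56). Scarb1, the receptor for high-density lipoprotein, did not pass at -0.42 ± 0.20 and was called lower without wild type replicate 2 (-0.64). It was also called lower with cyclic loess (-0.63), array weights (-0.54) and all 18 arrays (-0.40). Hsd3b1 and Hsd3b6, further enzymes of the pathway, had no named probe past the filter.

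Other products of adult Leydig cells were mostly lower. Of 16 tested markers of adult Leydig cells 9 fell and 2 rose, with a median of -1.65 against 0.24 over all genes. Insl3, the peptide hormone that directs testis descent, read 13.16, 12.89, 13.29 and 13.02 in wild type and 9.45, 10.60, 9.76, 9.25 and 9.02 in Lhr null testis. It fell by 3.47 ± 0.27 (adjusted p = 6.78e-06) and remained detected on every Lhr null array. The kallikrein proteases Klk1b21, Klk1b27 and Klk1b24 fell further but varied widely among wild type arrays. Klk1b21 read 9.67, 11.05, 12.04 and 7.92 on the wild type arrays and 5.08, 5.02, 5.78, 4.79 and 5.44 on the Lhr null arrays and fell by 4.95 ± 0.65. Klk1b27 read 8.78, 10.35, 11.42 and 7.08 in wild type and 4.46, 4.52, 4.55, 4.56 and 4.56 in Lhr null testis. No Lhr null array detected it, so it was at least 16.3-fold lower, and Klk1b24 was at least 9.81-fold lower. The 3 probes belong to a family of near-identical genes, and the share of each gene in their signal was not tested. Fabp3, a fatty acid carrier, fell by 2.66 ± 0.24, Lipe, the hormone-sensitive lipase, by 2.51 ± 0.17, and the apolipoprotein gene Apoc1 by 2.18 ± 0.44. Ephx1, an epoxide hydrolase, fell by 2.00 ± 0.20 and the adhesion molecule Vcam1 by 1.30 ± 0.22. Against this direction Hsd11b1, which acts on glucocorticoids, rose by 0.95 ± 0.29 and the glutathione transferase Gsta4 by 0.76 ± 0.16. Hsd11b1 lost its call with cyclic loess (0.68) and without the filter on detection (0.95), and Gsta4 without normalization (0.62). Me1 did not pass at 1.16 ± 0.81, with wild type replicate 3 at 4.57 and the other wild type arrays between 8.47 and 9.57.

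The lowest fitted difference of any gene was in Lcn2, outside these lists. Lcn2, which codes for a secreted lipocalin that binds iron carriers of bacteria, read 11.35, 11.78, 12.79 and 11.08 on the wild type arrays and 5.15, 5.68, 5.96, 4.71 and 5.26 on the Lhr null arrays. It fell by 6.40 ± 0.34 (84.3-fold, adjusted p = 1.36e-06), and 2 of 5 Lhr null arrays still detected it, so the fold rests in part on values under the detection limit. Agt, the precursor of angiotensin, read 9.43, 8.98, 9.46 and 8.97 in wild type and 4.61, 5.65, 4.74, 5.09 and 5.06 in Lhr null testis, fell by 4.18 ± 0.21, with 1 of 5 Lhr null arrays still detecting it. Ptgds, a lipocalin that makes prostaglandin D, read 9.17, 9.40, 9.23 and 9.43 on the wild type arrays and 4.74, 6.11, 5.49, 5.50 and 5.08 on the Lhr null arrays and fell by 3.92 ± 0.23. In all 3 genes Lhr null replicate 1 lay with or below the other Lhr null arrays. Ugt1a6b, a glucuronosyl transferase, was at least 4.53-fold lower, with no Lhr null array detecting it.

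Genes of fetal Leydig cells and of their precursors moved the other way. Dlk1, an imprinted membrane protein of stromal and precursor cells, read 6.33, 6.20, 6.35 and 6.12 in wild type and 9.51, 9.35, 10.46, 9.88 and 10.03 in Lhr null testis and rose by 3.60 ± 0.20 (12.1-fold, adjusted p = 1.9e-06). Of 7 tested genes of fetal or precursor cells 5 rose and 1 fell (median 0.85). The mesenchymal transcription factor Tcf21 rose by 1.40 ± 0.16, the hedgehog receptor Ptch1 by 1.32 ± 0.22, the ligand Wnt5a by 0.98 ± 0.22, the growth factor receptor Pdgfra by 0.85 ± 0.13 and Hsd17b1 by 0.68 ± 0.20, while the proteoglycan Lum fell by 0.64 ± 0.21, a call lost without wild type replicate 1 or 2 (-0.60 and -0.53). Cyp26b1, which breaks down retinoic acid, did not pass at 0.36 ± 0.18. With cyclic loess 4 of the 7 rose and 1 fell, and Hsd17b1 lost its call (0.45). Of 17 genes of cholesterol synthesis and uptake 4 rose and 7 fell (median -0.27). With cyclic loess 1 rose and 9 fell, with median scaling 2 and 7, and without normalization 0 and 6. Insig1, a brake on the sterol pathway, fell by 2.12 ± 0.21, and Cyp51, a demethylase of sterol synthesis that is also abundant in spermatids, fell by 1.94 ± 0.27. In the 4 genes of this list that differed at least 2-fold between the other 4 Lhr null arrays and wild type, Lhr null replicate 1 lay at 0.50 of the way to wild type, whereas it lay at 0.04 in 6 such genes of steroid synthesis and at -0.00 in 10 such markers of adult Leydig cells.

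Sertoli cells nurse the germ cells inside the tubules and carry the receptors for both androgen and follicle stimulating hormone. Their androgen-dependent genes did not move together. Of 13 tested genes 5 fell (38.5%) and 3 rose (23.1%), beside 24.6% and 42.6% of all genes. The median of the list was -0.20. Rhox5, a homeobox gene of Sertoli cells that responds to androgen, read 9.42, 9.08, 9.43 and 9.22 on the wild type arrays and 7.29, 7.59, 7.51, 6.48 and 6.80 on the Lhr null arrays and fell by 2.15 ± 0.22 (adjusted p = 2.4e-05), with no overlap between the groups. The defensin gene Defb45 fell by 2.06 ± 0.25 and the protease gene Corin by 0.89 ± 0.18. Cldn3, a protein of the tight junctions that close off the tubule, read 6.65, 6.13, 6.15 and 6.16 in wild type and 4.55, 4.96, 4.59, 4.43 and 4.57 in Lhr null testis. It passed detection on no Lhr null array and was at least 1.85-fold lower. Eppin, a protease inhibitor, did not pass at -0.20 ± 0.15. Another defensin gene, Defb36, rose by 1.25 ± 0.13, Plat, the tissue plasminogen activator, rose by 0.74 ± 0.16, and Stc2, which no wild type array detected, was at least 1.44-fold higher. With cyclic loess 7 fell and 3 rose.

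General Sertoli cell markers were mostly higher. Of 25 tested, 17 rose and 1 fell, with a median of 1.18, and with cyclic loess the count was 16 and 1 with a median of 0.91. Shbg, which binds sex steroids, read 6.91, 7.06, 6.97 and 6.59 on the wild type arrays and 8.76, 9.38, 9.38, 8.91 and 9.13 on the Lhr null arrays and rose by 2.23 ± 0.16 (4.70-fold, adjusted p = 4.7e-06). Fshr, the receptor for follicle stimulating hormone, read 6.16, 5.84, 6.52 and 5.98 in wild type and 8.03, 8.61, 8.48, 8.48 and 8.03 in Lhr null testis and rose by 2.21 ± 0.18, detected on 3 of 4 wild type and 5 of 5 Lhr null arrays. Inha, the alpha subunit of inhibin, rose by 1.82 ± 0.14, the transcription factor Sox9 by 1.48 ± 0.15, Bex2 by 2.05 ± 0.14, Gstm6 by 1.81 ± 0.17 and the cystatin Cst9 by 1.62 ± 0.36. Wild type replicate 2 read 10.2 for Cst9 and the other wild type arrays 11.9 to 12.0. Dhh, the hedgehog ligand that Sertoli cells send to Leydig precursors, rose by 1.46 ± 0.16. The exception was Etv5, an effector of growth factor signals in Sertoli and stem cells, which fell by 0.70 ± 0.19. Sox8 and Tsx did not pass at 0.02 ± 0.15 and 0.04 ± 0.25, nor did transferrin (Trf) at -0.58 ± 0.32. Trf was called lower without Lhr null replicate 1 (-0.83) and with array weights (-0.67).

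Signals between the somatic cells and the germ cells were counted as ligands and receptors. Of 19 tested ligands 9 rose and 3 fell (median 0.44), or 47.4% and 15.8% beside 42.6% and 24.6% of all genes. With cyclic loess 7 ligands rose and 6 fell. Of 25 tested receptors 14 rose and 1 fell (median 0.75). Among ligands, Inha and Dhh rose most, followed by Bmp4 at 1.05 ± 0.17, Wnt5a, the insulin-like growth factor gene Igf2 at 0.88 ± 0.13 and Gdnf, the Sertoli factor that maintains stem cells, at 0.86 ± 0.17. Igf1, a product of Leydig and other interstitial cells, read 6.82, 7.21, 6.33 and 6.55 on the wild type arrays and 5.76, 6.42, 5.33, 5.45 and 5.42 on the Lhr null arrays and fell by 1.05 ± 0.24. Gdf9 fell by 0.55 ± 0.14 and Wnt6 by 0.45 ± 0.15, the latter not without wild type replicate 2 or 3 (-0.38 and -0.36). Among receptors, Notch1 was detected on 0 of 4 wild type and 5 of 5 Lhr null arrays and was at least 2.11-fold higher. Ptch1, Bmpr2 (1.27 ± 0.15), Acvr2b (1.17 ± 0.14), Bmpr1a (1.16 ± 0.24) and Igf2r (1.06 ± 0.16) rose, and Flt1, a receptor for vascular growth factor, fell by 0.45 ± 0.17. The call of Flt1 was lost without any 1 of wild type replicates 2, 3 and 4 and Lhr null replicates 1, 3, 4 and 5 (-0.47 to -0.35). With cyclic loess 7 ligands rose and 6 fell, and 12 receptors rose and 3 fell. Of 7 tested hormone receptors and gonadal transcription factors 4 rose and 1 fell (median 0.56). The retinoid X receptors split, Rxra falling by 2.28 ± 0.31 and Rxrb rising by 1.14 ± 0.12, and Esr1, the estrogen receptor, did not pass at 0.12 ± 0.23.

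**Figure D2:**
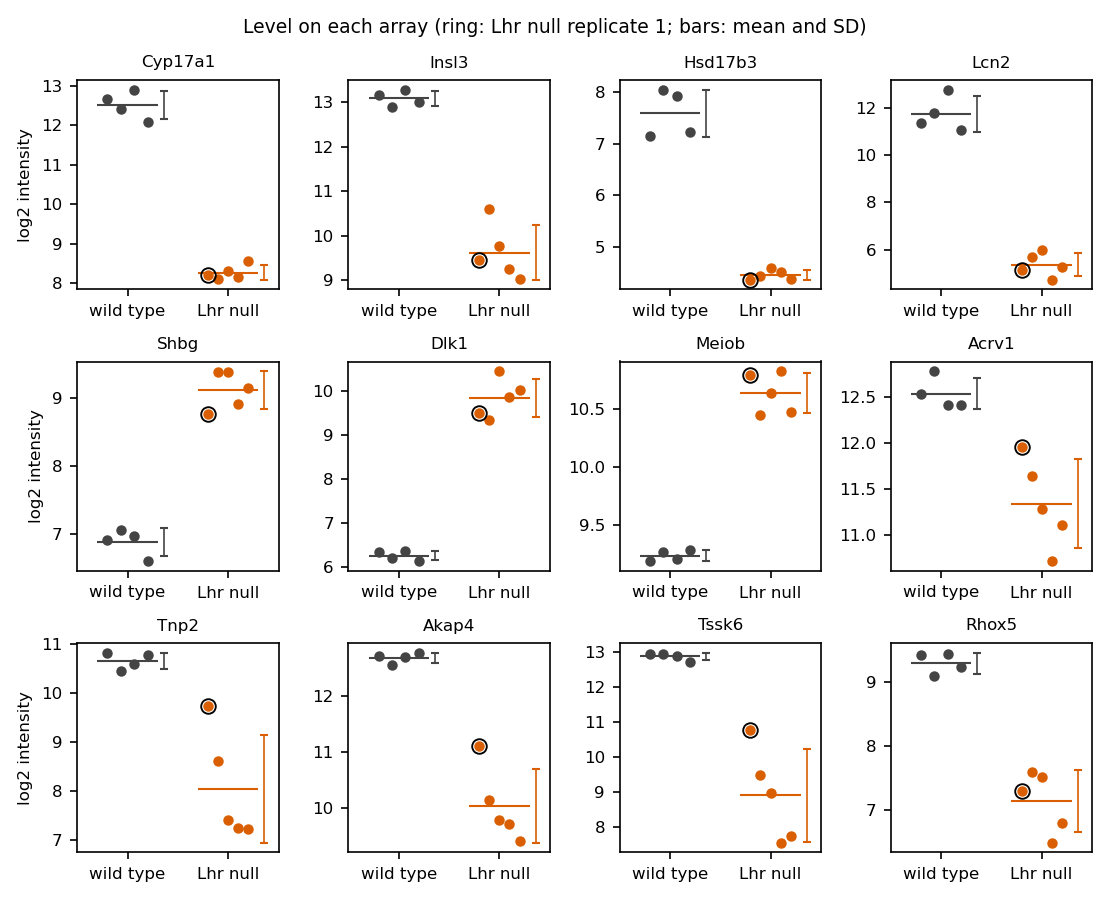
Log2 intensity (vertical axes, one scale per gene) of 12 genes on each of the 4 wild type and 5 Lhr null arrays, with a horizontal line at each group mean, a bar of 1 SD and a ring around Lhr null replicate 1. The ringed array lies among the other Lhr null arrays in Cyp17a1, Insl3, Hsd17b3, Lcn2 and Rhox5, and nearest to wild type in Acrv1, Tnp2, Akap4 and Tssk6.

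Genes of differentiating spermatogonia were mostly higher, and those of undifferentiated ones less uniformly so. Differentiating spermatogonia, the dividing cells that commit to sperm formation, showed 14 of 16 tested genes up and 0 down (median 0.97), and with cyclic loess 10 up and 0 down. Dazl, which binds RNA in germ cells, read 10.19, 9.89, 10.31 and 10.08 in wild type and 11.39, 11.46, 11.66, 11.98 and 11.71 in Lhr null testis and rose by 1.52 ± 0.14 (adjusted p = 1.62e-05). The X-linked Mageb4 rose by 1.44 ± 0.17 and Rhox13 by 1.34 ± 0.15, the DNA methyltransferase Dnmt3b by 1.21 ± 0.15 and Kit, the receptor that marks these cells, by 0.66 ± 0.19, which lost its call with cyclic loess (0.39). Stra8, which retinoic acid induces at meiotic entry, read 4.61, 4.62, 4.86 and 4.88 on the wild type arrays and 5.44, 5.63, 6.02, 7.05 and 5.28 on the Lhr null arrays and was detected on 0 of 4 wild type and 4 of 5 Lhr null arrays, at least 1.26-fold higher (adjusted p = 0.00646). Of 14 tested genes of undifferentiated spermatogonia 8 rose and 2 fell (median 0.57, with cyclic loess 6 and 4). Foxo1, a regulator of stem cell maintenance, rose by 1.51 ± 0.16 and Ret, the receptor for Gdnf, was at least 1.24-fold higher and detected on 0 of 4 wild type and 5 of 5 Lhr null arrays. Lhx1, a Gdnf-responsive transcription factor, read 7.45, 7.26, 7.51 and 6.96 in wild type and 5.84, 4.81, 4.88, 4.76 and 4.70 in Lhr null testis and fell by 2.30 ± 0.23. Zbtb16, a stem cell marker, did not pass at 0.02 ± 0.11.

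Genes of DNA replication and cell division were also higher. Of 31 tested, 19 rose and 1 fell (median 0.68), and with cyclic loess 17 and 3. The helicase that opens replication origins was higher in Mcm5 by 1.57 ± 0.15, in Mcm4 by 1.42 ± 0.18, in Mcm2 by 1.39 ± 0.18, in Mcm3 by 1.20 ± 0.16 and in Mcm6 by 0.95 ± 0.12, while Mcm7 did not pass at 0.06 ± 0.11. Mcm5 read 8.59, 8.65, 8.66 and 8.81 on the wild type arrays and 9.82, 10.20, 10.48, 10.25 and 10.48 on the Lhr null arrays. The cyclin Ccnd1 rose by 1.64 ± 0.16 and the centromere histone Cenpa by 1.60 ± 0.14. Ccnd3 fell by 0.98 ± 0.19, and the mitotic kinases Aurka and Aurkb did not pass at 0.09 ± 0.11 and -0.10 ± 0.14.

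Meiotic genes were divided by stage. In early meiosis, when chromosomes pair and recombine, 16 of 27 tested genes rose and 2 fell (median 0.41, with cyclic loess 13 and 3). Tex101, a surface protein of germ cells, rose by 1.72 ± 0.13, Rad51ap2 by 1.58 ± 0.16, the single-strand binding protein Meiob by 1.40 ± 0.12, Tex19.1 by 1.38 ± 0.17 and Hormad2 by 1.26 ± 0.15. Meiob read 9.19, 9.27, 9.21 and 9.29 in wild type and 10.79, 10.45, 10.64, 10.83 and 10.48 in Lhr null testis, with no overlap between the groups and little spread within them. The central element gene Syce2 fell by 1.03 ± 0.29 and the meiotic cohesin Rec8 by 0.58 ± 0.13, whereas Sycp1 did not pass at 0.50 ± 0.33. In pachytene, the long stage that follows, 9 of 29 tested genes rose and 7 fell. These were 31.0% and 24.1%, beside 42.6% and 24.6% of all genes, and the median of the list was 0.16. This median turned to -0.07 with cyclic loess, -0.23 with median scaling and -0.25 without normalization, where 4 to 7 genes rose and 9 to 11 fell. Mov10l1 rose by 1.34 ± 0.12, Piwil2 by 1.17 ± 0.14 and Piwil1 by 0.79 ± 0.11, and all 3 act in the silencing of transposons by small RNAs. Piwil1 lost its call with median scaling (0.30) and without normalization (0.29). The chaperone Calr3 fell by 2.71 ± 0.43 and the glycolytic enzyme Pgk2 by 1.36 ± 0.16. Sox30, a transcription factor of the onset of spermatid gene expression, was not detected on any Lhr null array and at least 2.10-fold lower. Ldhc, the lactate dehydrogenase of spermatocytes, read 14.81, 14.52, 13.81 and 14.64 on the wild type arrays and 14.74, 14.74, 14.70, 14.74 and 14.70 on the Lhr null arrays. These levels lay near the top of the scale. Ldhc did not pass at 0.28 ± 0.18 and was called higher with cyclic loess (0.60). The heat shock gene Hspa2 lay at -0.01 ± 0.12, which became 0.33 with cyclic loess.

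Genes of spermatids were lower, and those of later spermatids more so. Of 40 tested genes of round spermatids 30 fell and 0 rose (median -1.16), and without Lhr null replicate 1 32 fell (median -1.33). Acrv1, a protein of the forming acrosome, read 12.53, 12.78, 12.41 and 12.41 in wild type and 11.96, 11.64, 11.29, 10.71 and 11.10 in Lhr null testis and fell by 1.19 ± 0.22. Ccdc54 fell by 2.40 ± 0.29, Ropn1, a protein of the flagellar sheath, by 2.38 ± 0.47, Theg by 2.15 ± 0.21, Gsg1 by 2.14 ± 0.31, Klhl10 by 1.98 ± 0.24 and the calcium channel Catsper1 by 1.90 ± 0.21. The 10 that did not pass lay between -0.45 and 0.15 and included the acrosomal genes Dkkl1 (-0.11 ± 0.13) and Spesp1 (0.15 ± 0.12). This number depends on the normalization. With cyclic loess and with median scaling 37 of the 40 fell, without normalization 34, and 0 rose under each. Dkkl1 was called lower with cyclic loess (-0.44) and median scaling (-0.62). The acrosomal protease Acr fell by 0.70 ± 0.14.

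Of 39 tested genes of elongating spermatids, the stage of chromatin packing and tail assembly, 36 fell and 0 rose, with a median of -2.24. Car2, Paqr5, Bpifa3 and Spata32, all of which fell, had been taken out of this list after their values were seen, and with them 40 of 43 fell (median -2.39). Of the 39 genes, 37 fell without Lhr null replicate 1 (median -2.48), and under cyclic loess, median scaling and no normalization 37 or 38 fell and 0 rose. Tssk6, a kinase needed for sperm head shaping, read 12.93, 12.93, 12.89 and 12.70 on the wild type arrays and 10.76, 9.49, 8.97, 7.55 and 7.75 on the Lhr null arrays and fell by 3.96 ± 0.54 (adjusted p = 0.000103). The wild type arrays lay close together, whereas the Lhr null arrays were spread widely, with replicate 1 nearest to wild type. Akap4, the main protein of the fibrous sheath, read 12.71, 12.54, 12.69 and 12.76 in wild type and 11.11, 10.16, 9.79, 9.71 and 9.43 in Lhr null testis and fell by 2.63 ± 0.28. Fscn3, an actin bundler, fell by 3.79 ± 0.45, Spata3 fell by 3.50 ± 0.46, Spatc1 fell by 3.47 ± 0.46, Lelp1 fell by 3.30 ± 0.43 and Spata18 fell by 3.30 ± 0.34. The outer dense fibre gene Odf1 fell by 2.27 ± 0.28. Over the 34 genes of this list that differed at least 2-fold between the other 4 Lhr null arrays and wild type, the median position of Lhr null replicate 1 was 0.52 of the way to wild type and was nearest to it in 33. In 26 such genes of round spermatids these values were 0.57 and 24. Without it the difference of Tssk6 was -4.43, of Akap4 -2.91 and of Tnp2 -3.06, while that of Cyp17a1 stayed at -4.24.

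The proteins that replace histones in sperm fell unequally. Tnp2, a transition protein, read 10.83, 10.46, 10.60 and 10.78 on the wild type arrays and 9.74, 8.61, 7.41, 7.25 and 7.23 on the Lhr null arrays and fell by 2.62 ± 0.46. Tnp1, the other transition protein, read 13.92, 13.69, 13.40 and 14.00 in wild type and 13.41, 12.59, 12.42, 11.83 and 12.08 in Lhr null testis and fell by 1.29 ± 0.28. Prm1, the protamine that packs the sperm genome, read 14.70, 14.37, 13.85 and 14.67 on the wild type arrays and 14.52, 14.14, 13.83, 13.19 and 13.39 on the Lhr null arrays and did not pass at -0.58 ± 0.27 (adjusted p = 0.0803), with levels that overlapped between the groups and lay near the top of the scale on most arrays. Prm1 was called lower without Lhr null replicate 1 (-0.75) or wild type replicate 3 (-0.82). The same held with median scaling (-0.84), without normalization (-0.86), with array weights (-0.71) and with all 18 arrays (-0.57). Prm3 fell by 2.57 ± 0.36. Among 15 tested genes of sperm chromatin 8 fell and 4 rose (median -1.29). The testis-only variants H2al2a fell by 3.14 ± 0.40, H1f7 fell by 3.08 ± 0.39, H2al1m fell by 2.83 ± 0.44 and H2bl1 fell by 2.43 ± 0.35. The 4 that rose are variants that many cell types use, such as H3f3b (1.14 ± 0.16) and H2az1 (0.77 ± 0.10), but with median scaling 1 rose and without normalization 0. H2az1 lost its call under both (0.28 and 0.26) and H3f3b under the latter (0.65). Of 39 tested regulators of spermatid gene expression 13 rose and 12 fell. These were 33.3% and 30.8%, beside 42.6% and 24.6% of all genes. Their median was 0.08, turning to -0.17, -0.35 and -0.37 with cyclic loess, median scaling and no normalization. Spz1 fell by 2.71 ± 0.33, the kinase Camk4 was at least 3.91-fold lower, the chromatin remodeler Chd5 fell by 2.26 ± 0.25, Hmgb4 by 2.36 ± 0.34 and Fhl5, a partner of Crem, by 1.96 ± 0.29. Crem itself, a master regulator of spermatid genes, fell by 0.46 ± 0.13 on its brightest probe, and the mean of its probes was 0.07 and not called. Taf7l rose by 1.35 ± 0.14 and Hmgb2 by 1.32 ± 0.12, and the RNA helicase Ddx25 lay at 0.03 ± 0.09.

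**Figure D3:**
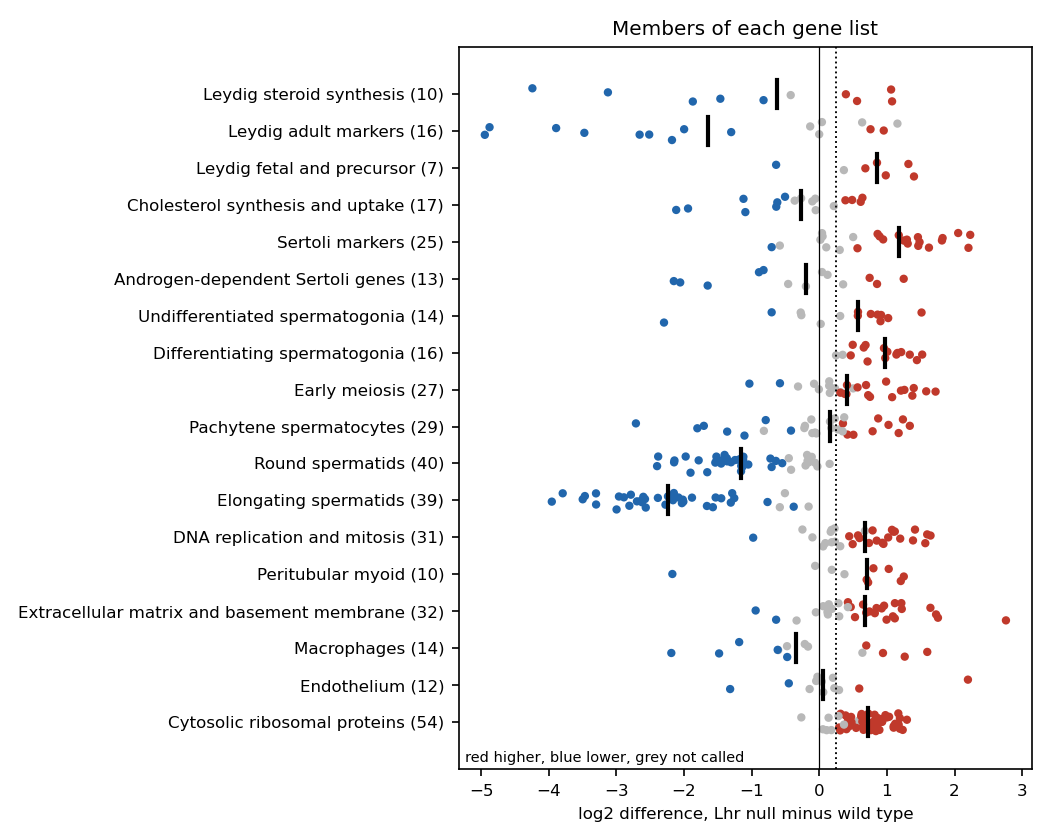
Log2 difference between Lhr null and wild type testis (horizontal axis) of each tested member of 18 gene lists, with the number tested in brackets, a black bar at the list median, a solid line at 0 and a dotted line at the median of all genes (0.24). Elongating spermatid genes have a median of -2.24 and round spermatid genes of -1.16, whereas Sertoli markers have a median of 1.18 and differentiating spermatogonia of 0.97.

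**Figure D4:**
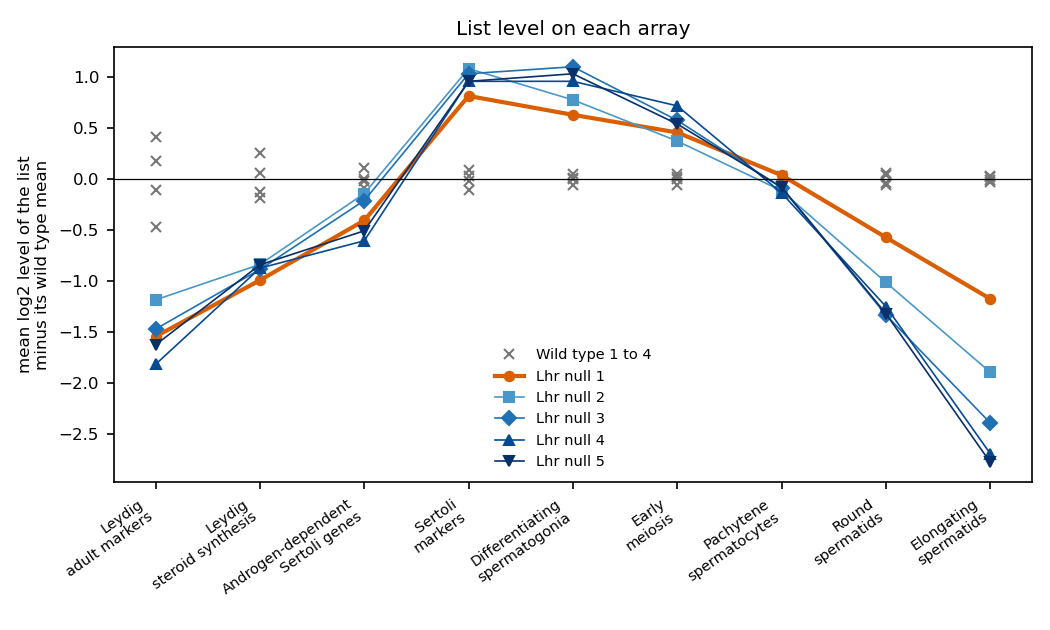
Mean log2 level of the members of 9 gene lists on each array, minus the mean of the wild type arrays (vertical axis), with wild type arrays as crosses and Lhr null arrays as joined symbols. Lhr null replicate 1 lies among the other Lhr null arrays for adult Leydig markers and below them for steroid synthesis (-0.99, others -0.89 to -0.84). For round and elongating spermatids it lies between the other Lhr null arrays and wild type.

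The promoters of the lower genes differed in base composition from those of the higher ones. Windows of 300 bases ran from 250 before to 50 after the annotated start. They were taken from RefSeq on build GRCm38.p6 for 8539 of the 10454 genes (81.7%). CG dinucleotides were counted and averaged over the windows of a gene. The median was 20 over all genes, 21 in 820 genes at least 2-fold higher and 7 in 1120 genes at least 2-fold lower, against 20 in genes that were not called. Genes with 5 or fewer CG by this mean made up 11.9% of all, 6.83% of the higher genes and 42.1% of the lower genes. Elongating spermatid genes had a median of 4 CG and round spermatid genes of 5, whereas replication genes had 21 and ribosomal protein genes 22. Sertoli markers, of which most rose, had a median of 6. A pair of windows, chosen to show the contrast, have each CG in capitals: Tnp2, lower, with 4 CG (chr16:10788606-10788905, minus strand, 56.0% G and C) and Mcm5, higher, with 25 CG (chr8:75109259-75109558, plus strand, 57.7% G and C). The pair is near in its share of G and C, but the sets are not. The median share was 54.0% in genes at least 2-fold lower, 61.3% in genes at least 2-fold higher and 50.7% in round spermatid genes, so the sets differ in both measures.
Tnp2: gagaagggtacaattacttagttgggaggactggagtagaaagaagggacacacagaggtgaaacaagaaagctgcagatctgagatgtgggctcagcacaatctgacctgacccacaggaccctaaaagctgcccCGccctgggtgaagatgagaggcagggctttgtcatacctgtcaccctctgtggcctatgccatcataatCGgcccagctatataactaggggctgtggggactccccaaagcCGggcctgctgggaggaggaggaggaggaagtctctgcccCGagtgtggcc
Mcm5: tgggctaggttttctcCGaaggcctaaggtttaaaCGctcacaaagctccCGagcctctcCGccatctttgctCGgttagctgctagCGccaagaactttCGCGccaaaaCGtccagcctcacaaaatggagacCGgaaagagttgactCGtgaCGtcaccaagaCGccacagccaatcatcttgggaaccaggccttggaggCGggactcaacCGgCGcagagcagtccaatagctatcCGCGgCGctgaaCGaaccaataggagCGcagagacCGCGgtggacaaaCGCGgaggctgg

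A pair of motifs was searched on both strands, TGACGTCA, the cAMP response element that Crem and its relatives bind, and CAAGGTCA, a site of the steroidogenic factor Nr5a1. TGACGTCA stood in at least 1 window of 3.65% of all tested genes, of 4.51% of genes at least 2-fold higher and of 2.86% of genes at least 2-fold lower. For CAAGGTCA these shares of genes were 1.34%, 0.49% and 2.41% in that order. Among all 32851 single windows of this length, 1.79% held TGACGTCA and 1.56% held CAAGGTCA. A gene can have several windows, so the shares of genes and of single windows are not comparable. The windows of Ccin, a sperm head protein gene that fell by 2.89 ± 0.41 and was chosen after its values were seen, and of Klk1b21 carry 1 motif each, here in capitals. It is TGACGTCA, which reads the same on both strands, in Ccin (chr4:43983254-43983553, plus strand) and the reverse complement of CAAGGTCA in Klk1b21 (chr7:44102042-44102341, plus strand).
Ccin: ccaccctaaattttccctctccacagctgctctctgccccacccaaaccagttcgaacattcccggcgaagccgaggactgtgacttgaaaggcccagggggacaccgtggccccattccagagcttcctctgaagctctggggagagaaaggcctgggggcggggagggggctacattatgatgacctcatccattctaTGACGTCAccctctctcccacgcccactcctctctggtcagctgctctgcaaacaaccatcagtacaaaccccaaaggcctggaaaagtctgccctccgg
Klk1b21: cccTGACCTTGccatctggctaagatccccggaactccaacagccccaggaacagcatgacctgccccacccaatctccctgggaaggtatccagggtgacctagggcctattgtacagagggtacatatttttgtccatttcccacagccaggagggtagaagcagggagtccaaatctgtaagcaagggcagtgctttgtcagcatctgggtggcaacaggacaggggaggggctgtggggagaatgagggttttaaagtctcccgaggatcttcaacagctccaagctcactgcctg

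Many proteins have a form made mainly in male germ cells beside a broadly expressed one. Of 50 such pairs listed, 28 had both members tested. Of the 28 testis forms 14 fell and 3 rose (median -0.30), and of the 26 broadly expressed partners 3 fell and 17 rose (median 0.80). The testis form had the lower difference in 23 of the 28 pairs, and in 8 pairs the testis form fell while its partner rose. Gapdhs, the glyceraldehyde phosphate dehydrogenase of the sperm tail, read 12.64, 12.50, 12.53 and 12.56 in wild type and 10.91, 10.17, 9.49, 9.15 and 9.13 in Lhr null testis and fell by 2.79 ± 0.32. Gapdh, its partner, read 9.12, 9.40, 9.63 and 9.23 on the wild type arrays and 9.81, 10.38, 10.23, 10.22 and 10.16 on the Lhr null arrays and rose by 0.82 ± 0.15. The chaperone Hspa1l fell by 3.14 ± 0.46 and Hspa8 rose by 1.36 ± 0.15, the disulfide isomerase Pdilt fell by 1.43 ± 0.21 and P4hb rose by 1.18 ± 0.13, and the ferritin-like Fthl17a fell by 1.39 ± 0.20 while Fth1 rose by 0.84 ± 0.11. The transketolases showed both patterns, Tktl2 falling by 1.07 ± 0.17 and Tktl1 rising by 1.24 ± 0.14 beside Tkt at 0.74 ± 0.20. The spermatocyte proteasome subunit Psma8 rose by 1.24 ± 0.14, next to Psma7 at 1.13 ± 0.14. The poly(A) polymerases fell together, Papolb by 0.69 ± 0.13 and Papola by 1.03 ± 0.15. The lactate dehydrogenase pair Ldhc and Ldha did not pass, though Ldhc was called higher with cyclic loess (0.60).

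**Figure D5:**
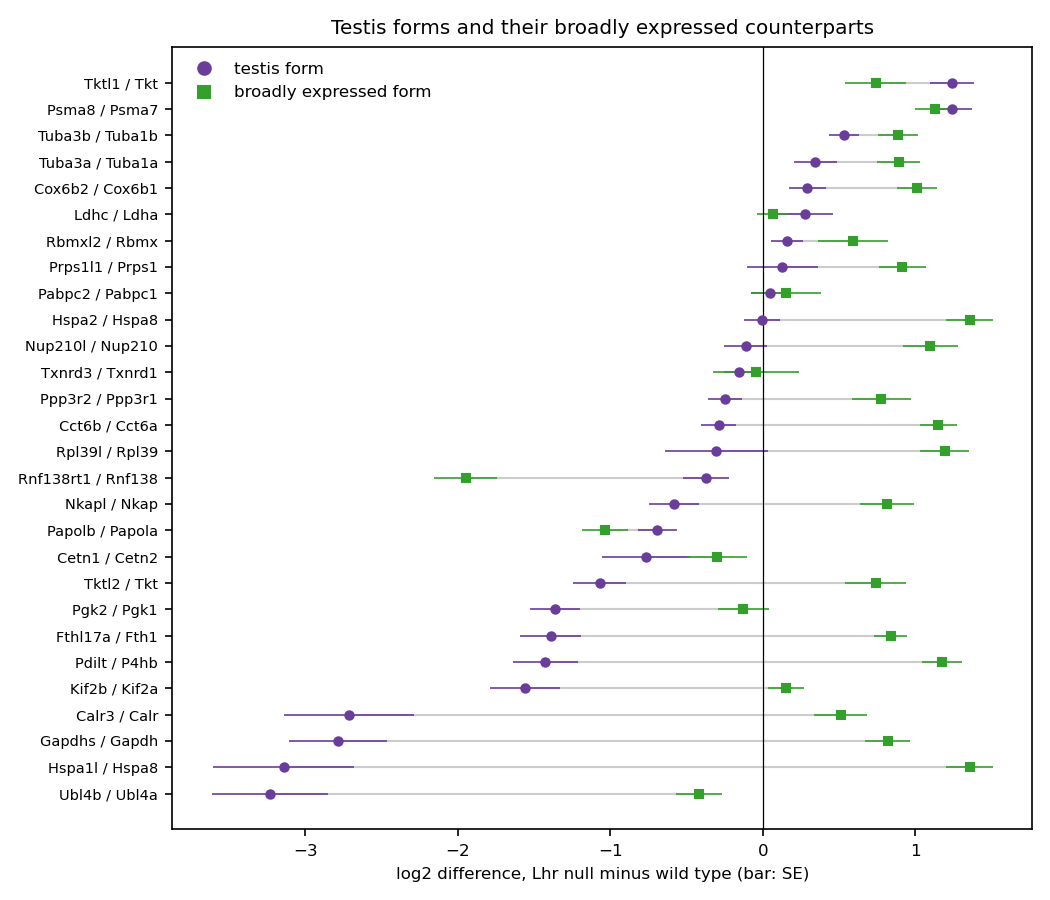
Log2 difference between Lhr null and wild type testis (horizontal axis, bars of 1 SE) of 28 testis forms (circles) and their broadly expressed partners (squares), ordered by the testis form. The testis form lies to the left of its partner in 23 of 28 pairs, most widely in Hspa1l and Hspa8.

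Of 376 tested X-linked genes 52.9% were higher and 27.4% lower, and 18.6% were at least 2-fold higher and 19.9% at least 2-fold lower. On the autosomes 37.6% to 44.9% were higher and 21.3% to 29.3% lower, the shares at least 2-fold higher ran from 6.90% to 11.04% and those at least 2-fold lower from 9.40% to 17.97%. X-linked genes that rose included Hs6st2, which modifies heparan sulfate, by 2.85 ± 0.18, the proteoglycan Gpc3, named after its value was seen, by 2.31 ± 0.18, Bex2 by 2.05 ± 0.14, Mageb4 and Rhox13 of spermatogonia, and Tex11 of early meiosis by 1.21 ± 0.15. X-linked genes that fell included the spermatid genes Akap4, H2al1m and Tspan6 (-3.18 ± 0.33 on its brightest probe) and, from other lists, Rhox5 and Alas2 (-2.57 ± 0.24). Of 13 tested Y-linked genes 9 fell and 1 rose. Among the 9 were Sly (-1.26 ± 0.32), a multicopy gene transcribed in spermatids, Rbm31y (-2.54 ± 0.26) and H2al2c (-2.15 ± 0.19). Copies of a multicopy gene can share a probe. The gene that rose was Kdm5d, a broadly expressed histone demethylase, which no wild type array detected and which was at least 1.14-fold higher.

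The other cells of the testis gave smaller or mixed differences. Peritubular myoid cells, the contractile coat of the tubule, had 6 of 10 tested genes up and 1 down (median 0.71). Acta2, smooth muscle actin, rose by 1.20 ± 0.14, Tpm1 by 1.25 ± 0.19 and Myh11, smooth muscle myosin, by 1.03 ± 0.15, while the related actin gene Actg2, which read 12.37, 12.52, 12.52 and 12.41 in wild type and 11.51, 10.76, 9.58, 9.93 and 9.63 in Lhr null testis, fell by 2.17 ± 0.35. Of 32 genes of the extracellular matrix 20 rose and 2 fell (median 0.67, with cyclic loess 17 and 2). These were 62.5% and 6.25%, beside 42.6% and 24.6% of all genes. No wild type array detected 5 of the 32, so they passed the filter only through Lhr null testis. With detection on all 9 arrays required, 13 of 22 rose and 2 fell. Col18a1, a basement membrane collagen, read 8.35, 8.25, 8.40 and 7.99 on the wild type arrays and 10.30, 10.98, 11.18, 11.40 and 11.16 on the Lhr null arrays and rose by 2.76 ± 0.20 (adjusted p = 5.27e-06). Agrn rose by 1.75 ± 0.16, Mgp by 1.73 ± 0.20 and the laminin chain Lama1 by 1.64 ± 0.21, and Col5a1 fell by 0.94 ± 0.16. Of 12 imprinted genes 9 rose and 1 fell (median 0.78), with Peg3 at 1.59 ± 0.15 after Dlk1 and the exception Rasgrf1 at -1.76 ± 0.18.

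Markers of macrophages moved in both directions, 4 of 14 up and 5 down (median -0.34). These were 28.6% and 35.7%, beside 42.6% and 24.6% of all genes. The class II antigen-presenting genes H2-Eb1 (1.60 ± 0.31), H2-Aa (1.26 ± 0.31) and H2-Ab1 (0.94 ± 0.26) rose, and Lyz2 (-1.48 ± 0.27) and the complement gene C1qb (-1.18 ± 0.20) fell. H2-Ab1 lost its call with cyclic loess (0.66) and with all 18 arrays (0.96). Of the 14 markers 2 rose and 7 fell with cyclic loess, and 2 rose and 5 fell with all 18 arrays. Adgre1 and Csf1r, which define the cell type, did not pass at -0.61 ± 0.29 and -0.48 ± 0.20. Adgre1 was called lower without wild type replicate 2 (-0.86) or Lhr null replicate 4 (-0.75), and Csf1r without wild type replicate 4 (-0.62) or Lhr null replicate 2 (-0.54). With cyclic loess both were called lower (Adgre1 -0.78, Csf1r -0.69), as was Adgre1 with array weights (-0.78) and by the mean of its probes (-0.62). Aif1 fell by 2.19 ± 0.30, and Cd3d, listed for lymphocytes, by 2.43 ± 0.29. Both were nearest to wild type on Lhr null replicate 1. Endothelial markers showed 2 of 12 up and 2 down (median 0.05), with Robo4 rising by 2.20 ± 0.25, Vwf falling by 1.32 ± 0.16 and Cdh5 at 0.20 ± 0.12. Among red blood cell genes the globins did not pass, Hba-a1 at 0.04 ± 0.31 and Hbb-bt at -0.01 ± 0.40, and Alas2 fell. Of 19 epididymis genes 2 were tested and Cst11 fell by 0.44 ± 0.17, a call lost without any 1 of wild type replicates 1, 2 and 4 and Lhr null replicates 1 and 2 (-0.44 to -0.36), while Crisp1, Lcn5, Lcn8 and Adam7 had no probe past the filter. Of 3 tested fat genes Adipoq fell by 1.92 ± 0.25, and of 3 tested genes of skeletal muscle 2 rose and 1 fell.

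Genes for the proteins of the cytosolic ribosome were higher together. Of 54 tested, 46 rose and 0 fell (median 0.73), with Rpl22 highest at 1.30 ± 0.16 and Rpl10a at 1.23 ± 0.12. The number that rose was 43 with cyclic loess, 17 with median scaling and 10 without normalization, and 0 fell under each of these. Common reference genes did not hold steady, since Actb fell by 0.93 ± 0.19 on its brightest probe, with -0.20 and no call for the mean of its probes, while Gapdh rose, with a call lost only where arrays were not normalized (0.62).

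Some transcripts were detected in 1 genotype and not in the other. Of the 10454 genes, 277 were detected on no wild type array, 168 of them on all 5 Lhr null arrays. Another 98 were detected on no Lhr null array. The filter required detection on at least 4 of the 9 arrays. A gene detected on no Lhr null array thus passed only with all 4 wild type arrays. A gene detected on no wild type array needed 4 of 5 Lhr null arrays, so these counts are not comparable. Highest of all genes was 4930486L24Rik on chromosome 13, which read 4.65, 4.77, 5.71 and 4.63 in wild type and 9.14, 9.27, 10.08, 8.96 and 9.22 in Lhr null testis and rose by 4.39 ± 0.27 (21.0-fold, adjusted p = 2.42e-06). Wild type replicate 3, its only wild type array with detection, and Lhr null replicate 3 were the highest of their groups. Fam155a read 4.44, 4.25, 4.45 and 4.48 on the wild type arrays and 7.02, 7.06, 7.68, 7.47 and 7.49 on the Lhr null arrays. No wild type array detected it, and it was at least 3.48-fold higher. The small GTPase gene Rab7b was at least 3.90-fold higher, the carboxylesterase Ces2g at least 3.17-fold, Epdr1 at least 2.92-fold, the keratin Krt79 at least 2.51-fold and Bcan, a brain proteoglycan, at least 2.39-fold, all with detection on 0 of 4 wild type arrays. Wfdc1 rose by 2.62 ± 0.16, Schip1 by 2.40 ± 0.14 and Atp5j, a subunit of the mitochondrial ATP synthase, by 2.36 ± 0.21. On the lower side, Nudt16l2 fell by 4.28 ± 0.64, the carbonic anhydrase Car2 fell by 4.36 ± 0.48, Spata32 fell by 4.23 ± 0.51 and Tppp2, a tubulin-binding protein, fell by 4.08 ± 0.52, and in each of these 4 genes Lhr null replicate 1 was the highest Lhr null array. Detected on 0 of 5 Lhr null arrays were also D7Ertd443e, at least 3.38-fold lower, Nectin1, at least 3.99-fold, Col23a1, at least 3.89-fold, and Hhipl2, at least 3.52-fold.

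Probes of the same gene did not always agree. Of 5088 pairs of probes in 3611 genes with more than 1 probe, 1174 (23.1%) differed in their response at an adjusted p under 0.05, and in 240 genes probes were called in opposite directions. Tspan6 fell by 3.18 ± 0.33 on its brightest probe. On another, which no wild type array detected, it was at least 1.65-fold higher. Lasp1 rose by 0.85 ± 0.18 and fell by 3.10 ± 0.23 on another probe, Ilrun rose by 1.01 ± 0.15 and fell by 2.90 ± 0.23, Dad1 rose by 0.46 ± 0.13 and fell by 3.13 ± 0.26, and Cdyl, a regulator of spermatid chromatin, fell by 2.89 ± 0.38 and rose by 0.48 ± 0.19. The within-array difference between these probes passed in each, with an adjusted p from 2.28e-05 in Ilrun to 0.000353 in Cdyl. Dad1 lost its rise with cyclic loess (0.11), median scaling (-0.032) and no normalization (-0.049). Each gene is described here by its brightest probe, and which transcripts the probes read was not tested.

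Close agreement between the genotypes could be shown for few genes. The 95% interval of the difference lay within 0.25 of 0 for 31 genes and within 0.5 for 1560, while 3431 genes were not called, which does not show that they were equal. Cenpn, a centromere protein, read 11.33, 11.27, 11.29 and 11.38 in wild type and 11.35, 11.34, 11.29, 11.14 and 11.35 in Lhr null testis and differed by -0.03 ± 0.10, and Tubgcp2, a part of the microtubule nucleating complex, by -0.01 ± 0.10. Abcf3 (-0.02 ± 0.10), Med15 (-0.02 ± 0.10) and Chrac1 (-0.01 ± 0.10) lay as close to 0, as did Pank2 (0.02 ± 0.10) and Wdr20rt (0.02 ± 0.10). These values hold for quantile normalization. With cyclic loess all 7 were called lower, between -0.37 and -0.28, whereas Ddx25 was not.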

How the data were processed

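Per the file headers, the deposited table holds a bead-averaged intensity, a detection p-value and a bead count per probe and array, for 45281 probes. Per the submitters' processing notes GenomeStudio 1.7.0 was used, with further steps not given in the sources used here. The deposited intensity values are linear and were treated as not normalized. The authors' own processed intensity values served as an alternative. The deposited detection p-value set the filter and the background model.

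Intensities of the 9 arrays were background-corrected (normexp from the detection p-values, offset 16), quantile normalized and taken to log2 with limma 3.58.1 in R 4.3.3. A linear model of both groups with eBayes gave differences, SEs and Benjamini-Hochberg adjusted p-values over 18321 probes, called at 0.05. The number of arrays limits the precision. A probe had a median of 42 or 43 beads. All arrays differed from each other in their values. Folds of dim probes come out too small through the offset. For a gene that no array of a group detected, the fold is a lower bound. The bright group's mean is set against the dim group's mean of, per array, the lowest detected signal or the probe's own, whichever is higher.

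Symbols came from the platform annotation, updated for 34807 probes through the gene identifier with a RefSeq table (GRCm38.p6). Of all probes 34885 have 1 symbol, 18 several and 10378 none.

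The members, the 29 gene lists and the pairs were chosen with earlier results of these data known, so lists are described by counts and medians and were not tested. Of their 501 tested genes, 37 stand in more than 1 list. After the values were seen, 4 genes were removed from the elongating spermatid list and the ribosomal protein list was formed from the symbols of the tested genes. Genes were named by rule: the 12 highest and 12 lowest called genes with no overlap that every array of the brighter group detected, up to 6 called members per list and any that did not pass, the pairs, the 10 brightest genes per direction that every array of 1 group and none of the other detected, the 8 with the most opposed probes, the 8 measured most precisely near 0, and a fixed set. Cell type markers and further list members were added, and some genes were chosen after their values were seen. The model was tested on simulated data. Alternatives changed the normalization, background, offset, filter, arrays, probe choice, weights and block.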

Additional observations from a re-analysis of the deposited data

Results flagged for a closer look

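Within the groups of 4 or 5 arrays, 464 groups of values were examined for the genes named in the Results. By Dixon's test at the 95% level, 21 of the 464 held 1 array far from the others. Chance alone gives this in about 1 group in 20. Lhr null replicate 1 accounted for 6 of the 21, Lhr null replicate 4 for 4 and wild type replicate 3 for 3. On Lhr null replicate 1 the level was 11.96 for Chrac1 (others 11.78 to 11.81), 9.16 for Dnmt3b (others 9.75 to 9.84), 5.84 for Lhx1 (others 4.70 to 4.88), 13.2 for Piwil1 (others 13.33 to 13.39), 11.3 for Piwil2 (others 11.8 to 11.9) and 9.19 for Tpm1 (others 9.89 to 9.98). In Dnmt3b, Lhx1, Piwil1, Piwil2 and Tpm1 this array lay on the side of wild type.

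Lhr null replicate 4 read 10.97 for Aurka (others 11.15 to 11.20), 4.67 for Col23a1 (others 5.04 to 5.09), 8.05 for Ephx1 (others 8.31 to 8.37) and 8.88 for Mcm6 (others 8.67 to 8.73). Lhr null replicate 2 read 7.63 for Hsd17b1 (others 6.68 to 6.81) and 7.36 for Wnt6 (others 6.97 to 7.07). Lhr null replicate 3 read 10.1 for 4930486L24Rik (others 8.96 to 9.27) and 5.55 for Cyp11a1 (others 6.16 to 6.31).

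Among wild type arrays, replicate 1 read 6.65 for Cldn3 (others 6.13 to 6.16). Replicate 2 read 10.2 for Cst9 (others 11.9 to 12.0) and 6.46 for D7Ertd443e (others 7.30 to 7.41). Replicate 3 read 5.71 for 4930486L24Rik (others 4.63 to 4.77), 11.44 for Dad1 (others 11.63 to 11.66) and 11.2 for H2al2a (others 10.8), and replicate 4 read 10.11 for Abcf3 (others 10.2).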

How the results depend on the processing

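Of 232 genes named in the Results, 188 kept their direction and their side of the threshold under all 21 alternatives. The other 44 did not under at least 1, 7 of them with a reversed direction. Cox6b2, Ercc2, Itpripl1 and Psme3ip1, named only in this section, are not among the 232 and also reversed under at least 1 alternative. Without normalization between arrays the rises of Fth1, Gapdh, Kit, Lasp1 and Tkt and the falls of Cst11, Etv5, Flt1, Gdf9, Lum and Wnt6 lost their calls too. The number of genes called was 4156 without normalization between arrays, where 2075 genes were higher, and 7114 probes were called, 3431 of them higher. Genes higher at least 2-fold numbered 295 with cyclic loess, 452 with the authors' processed values, 543 with an offset of 50 and 537 without background correction. Leaving out 1 array gave 6475 to 7164 called genes, and fitting the replicate number as a block gave 6677, of which 6510 were shared with the same direction. The deviations of same-numbered arrays from their group means correlated at -0.017, 0.139, 0.035 and 0.156. Wild type replicates 2 and 4 correlated best with the same-numbered Lhr null array, and replicates 1 and 3 with another. Whether same-numbered arrays share more than a number was not tested. Pachytene genes turned to a median of -0.072 with cyclic loess, -0.23 with median scaling and -0.25 without normalization, and spermatid regulators to -0.17, -0.35 and -0.37. Where detection on all 9 arrays was required, fewer genes were tested. The median was 0.39 over 7 in place of 10 genes of steroid synthesis and -0.53 for the 1 of 3 skeletal muscle genes. Genes that no array of a genotype detected drop out there. Of receptors 9 of 18 then rose and 1 fell, and of differentiating spermatogonia genes 11 of 13 rose and 0 fell. Of undifferentiated spermatogonia genes 4 of 5 rose and 0 fell. With cyclic loess Hspa2 became 0.33, Pank2 -0.28 and Wdr20rt -0.32. With median scaling Dad1 became -0.032 and Wdr20rt -0.50, and without normalization Dad1 became -0.049. Averaging the probes of a gene, in place of its brightest probe, gave Cox6b2 -0.51, Crem 0.070, Dad1 -1.34, Ercc2 -0.95, Hspa2 0.27, Ilrun -0.43, Itpripl1 -0.75, Lasp1 -0.67 and Psme3ip1 -0.85. Ercc2 ran from -2.62 to 0.81 over the arrays left out, because another probe became the brightest (-2.62, -2.44 and -2.53 without Lhr null replicates 3, 4 and 5). Apart from these constructions the cause was not tested. Among 2614 genes with levels up to 6.55 the median SE was 0.17 and 35.5% were called higher and 23.5% lower, against a median SE of 0.13, 46.8% and 24.9% among 2614 genes with levels from 9.53, so dim genes were measured less precisely.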

Other observations

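In 16 genes 1 array lay at least 2.5 log2 units from all others of its group. Lrrc57 read 6.30 on wild type replicate 2 and at least 12.3 on the other wild type arrays, and Ttc27 read 5.23 on Lhr null replicate 5 and at least 9.53 on the other Lhr null arrays. Pdrg1 read 4.38 on Lhr null replicate 1 and at least 8.26 on the other Lhr null arrays. Tomm22 was low on an array of each group, 8.23 on wild type replicate 1 and 7.48 on Lhr null replicate 5, where the nearest other array of the group read 11.1 and 10.9. Tesk1 was high on wild type replicate 3 (12.0, next 9.43) and low on Lhr null replicate 2 (8.14, next 11.7).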
